A study of Mus musculus with 22 samples.

Results

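Hox genes encode homeodomain transcription factors that give cells of the vertebrate embryo their position along the head-to-tail axis. In the mouse they lie in 4 clusters, HoxA, HoxB, HoxC and HoxD, in which genes of low number act towards the head and genes of high number towards the tail. Their expression in the nervous system is known to stop in the hindbrain, so that midbrain and forebrain lie in front of it, and Polycomb complexes are known to keep the clusters silent where they are not used. The members here were all genes of the RNA table whose symbol is Hoxa, Hoxb, Hoxc or Hoxd followed by a number. These were 39 of 55385 genes, with 11 in HoxA, 10 in HoxB, 9 in HoxC and 9 in HoxD, and they were taken up as a set that should be silent in this tissue.

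The tissue was the telencephalon of ICR mice, the foremost part of the neural tube, from which cortex and basal ganglia develop. Embryos of day 16.5 (E16.5) were set against embryos of day 13.5 (E13.5), with no allele or treatment named in the labels. Each group held 2 libraries, stated to be biological replicates, and the number of embryos behind each is not stated in the labels. Polyadenylated RNA was sequenced at both stages. Native ChIP-seq, which uses chromatin that was never crosslinked, mapped 3 modifications of histone H3 at both stages. These were acetylation and crotonylation of lysine 9 (H3K9ac and H3K9cr) and lactylation of lysine 18 (H3K18la), all known as marks of active genes. ATAC-seq, which maps open chromatin, covered E13.5.

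On GRCm38 the members of HoxA lay on chromosome 6. Those of HoxB spanned chr11:96194316-96368254, from Hoxb13 to Hoxb1, those of HoxC chr15:102921131-103036856, from Hoxc13 to Hoxc4, and those of HoxD chr2:74668225-74765142, from Hoxd13 to Hoxd1. With 10000 bp added at each side, the 4 windows held 572097 bp.

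RefSeq promoters of GRCm38.p6, 250 bases before to 50 bases after a gene's start, were found for 22 of the 39 members, 24 promoters in all. Shown in capitals are CG dinucleotides, which read the same on both strands and are dense in promoters that active marks commonly occupy. Hoxa13, which patterns digits and the urogenital tract, had the most CG of the Hox promoters, 45. Hoxd13, its HoxD counterpart, had 37. Hoxa9, which acts in trunk patterning and blood progenitors, had 4, the fewest, as did the Hoxd4 promoter and 1 of the Hoxd11 promoters. Emx1, a regulator of the dorsal telencephalon, is shown beside them because its promoter had as many CG as that of Hoxd13. The promoters lie at chr6:52260831-52261130 on the minus strand (Hoxa13), chr2:74667975-74668274 on the plus strand (Hoxd13), chr6:52227321-52227620 on the minus strand (Hoxa9) and chr6:85187681-85187980 on the plus strand (Emx1).
Hoxa13: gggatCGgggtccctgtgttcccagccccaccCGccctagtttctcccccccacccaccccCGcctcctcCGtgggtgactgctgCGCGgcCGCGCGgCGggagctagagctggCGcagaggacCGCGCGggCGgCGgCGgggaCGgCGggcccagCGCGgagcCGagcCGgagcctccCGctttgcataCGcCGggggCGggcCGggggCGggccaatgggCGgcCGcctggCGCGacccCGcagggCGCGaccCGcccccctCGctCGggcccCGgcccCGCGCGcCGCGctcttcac
Hoxd13: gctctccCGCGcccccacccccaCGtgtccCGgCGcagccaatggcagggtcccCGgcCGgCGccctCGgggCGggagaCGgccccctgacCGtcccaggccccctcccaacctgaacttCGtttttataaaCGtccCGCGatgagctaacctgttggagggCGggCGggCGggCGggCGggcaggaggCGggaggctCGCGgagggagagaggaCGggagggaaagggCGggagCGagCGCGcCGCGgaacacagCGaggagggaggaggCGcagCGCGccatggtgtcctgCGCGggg
Hoxa9: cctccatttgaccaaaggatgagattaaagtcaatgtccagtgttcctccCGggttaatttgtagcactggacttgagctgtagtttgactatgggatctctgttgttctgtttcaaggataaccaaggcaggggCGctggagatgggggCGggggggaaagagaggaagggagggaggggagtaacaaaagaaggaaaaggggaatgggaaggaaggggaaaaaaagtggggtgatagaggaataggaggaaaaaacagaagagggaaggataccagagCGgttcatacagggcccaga
Emx1: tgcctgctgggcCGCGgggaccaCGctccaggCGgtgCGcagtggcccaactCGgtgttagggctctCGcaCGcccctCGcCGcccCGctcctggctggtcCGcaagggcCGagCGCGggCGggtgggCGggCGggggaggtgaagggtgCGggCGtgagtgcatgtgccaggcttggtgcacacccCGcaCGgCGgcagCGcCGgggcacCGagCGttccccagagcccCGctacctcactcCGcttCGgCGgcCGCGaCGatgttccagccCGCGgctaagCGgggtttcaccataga
None of the 24 Hox promoters overlapped a peak of any of the 14 peak lists. The Emx1 promoter overlapped a peak in 12 of them, which were all the histone mark libraries, and in neither ATAC-seq library.

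The Hox genes were almost without RNA counts at both stages. The E16.5 libraries, with 17533164 and 18024657 counts in all, held 1 and 1 count from the 39 genes together. The E13.5 libraries, with 17059544 and 18485855 counts, held 2 and 0. The stages thus did not differ in the number of Hox counts, 2 at E16.5 and 2 at E13.5, each with an exact 95% Poisson interval of 0.242 to 7.22 counts that covers counting error only.

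Only 4 members had a count at all, and each had 1. Hoxa7, a trunk patterning gene, had 1 and 0 counts in the E16.5 libraries and 0 and 0 in the E13.5 libraries. Hoxc13, known for its part in hair and nail formation, had 0 and 1 at E16.5 and 0 and 0 at E13.5. Hoxa4, which helps to pattern the neck vertebrae, had 0 and 0 at E16.5 and 1 and 0 at E13.5. Hoxb9, which acts in the thoracic skeleton, likewise had 0 and 0 at E16.5 and 1 and 0 at E13.5. No member had a count in more than 1 library, and no HoxD gene had a count in any. The anterior genes Hoxb1, Hoxa2 and Hoxb2, which pattern the hindbrain and stand closest to the brain in the order of the clusters, had 0 counts in all 4 libraries.

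In CPM, the usual unit of counts scaled to library size (here with TMM), the sum over the family was 0.0552 at E16.5 (95% interval 0.00668 to 0.199) and 0.0575 at E13.5 (0.00696 to 0.208). A single count was worth 0.0545 to 0.0601 CPM. A count of 0 in 1 library allows up to 3 counts, which is 0.168 and 0.163 CPM in the E16.5 libraries and 0.180 and 0.165 CPM in the E13.5 libraries. All members were at or under that limit in every library, so no fold change between the stages is given for any of them. In bulk tissue, fewer cells of a type and less RNA per cell cannot be told apart, and levels under the limit could be missed at this depth.

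Of the 39 Hox genes, 35 (89.7%) had 0 counts in all 4 libraries, against 4588 of 21856 protein-coding genes (21.0%) and 28835 of all 55385 genes (52.1%). All 39 (100%) had at most 1 count over the 4 libraries, against 23.7% of protein-coding genes. None of the 39 passed the filter on low counts of the test across all genes. edgeR's quasi-likelihood test therefore called 0 of them, while it called 28.4% of 16237 tested genes higher and 29.2% lower at E16.5 at an adjusted p under 0.05. With no filter, edgeR tested the 4 members with a count and called 0, with 0 at an unadjusted p under 0.05, and so did DESeq2. In the authors' deposited table, a log2 fold change was given for 4 of the 39 members and was absent for 35, with unadjusted p-values of 0.755 to 0.785 and an adjusted p of 1 for each member.

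Non-coding genes of the clusters were as empty. Of 16 in the RNA table, among them Hotair, Hottip and Haglr, 15 had 0 counts in all libraries. Hotairm1, a transcript of HoxA, had 1 and 0 counts at E16.5 and 0 and 0 at E13.5. The 6 microRNA genes in that list (Mir10a, Mir10b, Mir196a-1, Mir196a-2, Mir196b and Mir615) were at 0 too, though polyadenylated RNA is not a measure of mature microRNAs.

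The tissue label was set against marker genes. All 17 telencephalon regulators passed the filter, and 0 rose and 16 fell at E16.5 (15 fell and 1 rose under upper-quartile scaling), against 28.4% of all tested genes that were higher and 29.2% that were lower. Of 18 hindbrain and spinal cord markers, 3, Mnx1 and Fev among them, were at 0 in all libraries. In all, 15 did not pass the filter on low counts and had at most 11 counts in any library. The summed level of the list was 32.2 and 32.5 CPM at E16.5 and 38.3 and 43.5 CPM at E13.5. Only 3 markers of the list were thus tested. With no filter on low counts 15 were tested, and 2 were called lower. Gbx2, which sets the front border of the hindbrain and is also made in the ventral telencephalon, was the one called of the 3 tested. It had 33 and 37 counts at E16.5 and 61 and 186 at E13.5, and fell by 1.85 on the log2 scale (edgeR, adjusted p = 0.00897). Without the E13.5 library of 186 counts the fall was 0.93 on the log2 scale with an adjusted p of 0.0571, which ends the call.

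Peaks near start sites were looked for next. A gene was called marked where both libraries of a group had a peak within 2000 bp of a RefSeq start, or, for the 17 members and 4392 of 21883 protein-coding genes with none listed, of either end of the gene. H3K9ac marked 3 of 39 Hox genes at E16.5 (63.8% of protein-coding genes) and 1 at E13.5 (61.2%). H3K9cr marked 3 at E16.5 (63.6%) and 0 at E13.5 (61.6%). H3K18la marked 1 at E16.5 (50.4%) and 1 at E13.5 (53.9%). ATAC-seq marked 0 at E13.5 (44.6%). The Hox shares thus lay between 0% and 7.69%, under the background of each mark.

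Genes with 0 counts in all RNA libraries are a closer background. Of 4314 such protein-coding genes other than Hox genes, H3K9ac marked 2.85% at E16.5 and 1.81% at E13.5, H3K9cr 2.74% and 1.76%, H3K18la 1.78% and 2.20%, and ATAC-seq 1.04% at E13.5. With 39 Hox genes, 1 gene is worth 2.56%, so the Hox shares lay within 2 genes of these values. For the histone marks the telencephalon regulators stood at the other end, with all 17 marked by H3K9ac and by H3K9cr at both stages. H3K18la marked 15 of the 17 at E16.5 and 17 at E13.5. ATAC-seq marked only 3 of the 17 at E13.5, where it marked 44.6% of all protein-coding genes. Most of these expressed regulators thus had no ATAC-seq peak in both libraries either.

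**Figure D1:**
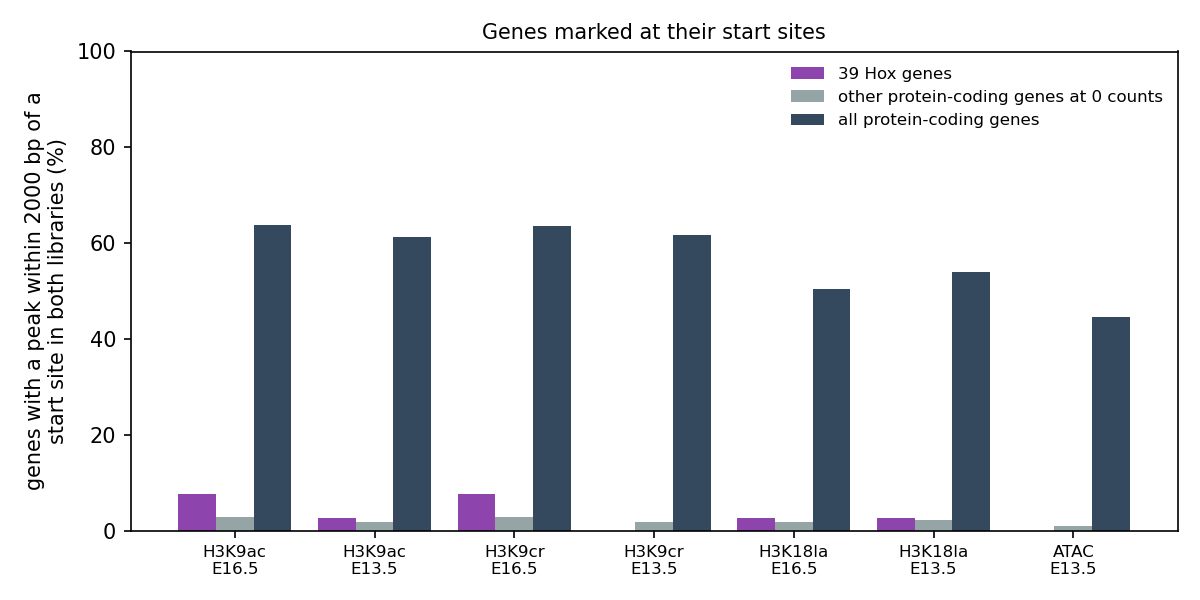
Percent of genes with a peak within 2000 bp of a start site in both libraries, for each mark and stage, for the 39 Hox genes (purple), other protein-coding genes with 0 RNA counts (grey) and all protein-coding genes (dark). The purple bars stay at or under 7.69%, near the grey bars of 1.04% to 2.85%, while the dark bars reach 44.6% to 63.8%.

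All the marked members were among the 17 with no listed start. Of the 22 members with a listed start, 0 were marked in both libraries of any group, against 45.3% to 63.5% of 17491 protein-coding genes with a listed start. Among the marked members were Hoxb13, Hoxc6 and Hoxb6.

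Hoxb13, the last gene of HoxB, acts in tail and prostate development and was marked at E16.5 only by the rule used, at its lower end (chr11:96194109-96194665). Fold enrichment, the authors' value at a peak's summit over the local background, was 6.17 and 3.86 for its H3K9ac peaks at E16.5, and no E13.5 library had one. Its H3K9cr peaks had 4.28 and 3.26 at E16.5, and again no E13.5 library had one. Hoxc6, a trunk patterning gene, was marked in the same way inside the gene (chr15:102999219-102999704). There H3K9ac reached 7.07 and 8.71 and H3K9cr 5.52 and 8.03 at E16.5, with no peak at E13.5. Hoxb6, a trunk patterning gene of HoxB, had H3K18la peaks of 4.25 and 4.59 at E16.5 and none at E13.5 (chr11:96294325-96294631). It was the single member that H3K18la marked in both libraries at E16.5.

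The E16.5 peak lists of H3K9ac and H3K9cr were longer throughout. H3K9ac had 49652 and 50668 peaks at E16.5 and 37319 and 34532 at E13.5, and H3K9cr had 41074 and 42304 at E16.5 and 32567 and 28968 at E13.5. Of all merged H3K9ac regions of the genome, 14.5% were called in both E16.5 libraries and neither E13.5 library, and 1.26% the other way round. In the Hox windows 2 of 6 H3K9ac regions were called at E16.5 alone in this sense and 0 at E13.5 alone. For H3K9cr it was 3 of 4 Hox regions at E16.5 alone (13.9% over the genome) and 0 at E13.5 alone (0.584%). For H3K18la it was 1 of 20 at E16.5 alone (5.02%) and 2 at E13.5 alone (6.87%). The part of peak list length in the Hox regions called at one stage was not tested, and the read depth behind the lists is unknown.

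Across the whole cluster windows peaks were sparse. H3K9ac peaks covered 0.335% ± 0.0522 of the windows at E16.5 and 0.108% ± 0.0215 at E13.5 (SD, n = 2 each), against 2.0% and 1.69% of the annotated span of all chromosomes. H3K9cr peaks covered 0.268% ± 0.00309 at E16.5 and 0.0262% ± 0.0371 at E13.5 (SD, n = 2 each), against 1.87% and 1.43%. H3K18la peaks covered 0.475% ± 0.220 at E16.5 and 0.463% ± 0.0498 at E13.5 (SD, n = 2 each), against 2.21% and 2.61%, and ATAC-seq peaks 0% against 0.300%. In every library the windows were less covered than the genome. The H3K9ac and H3K9cr values of the windows did not overlap between the stages, and those of H3K18la did. The same held for the shares of the annotated span of all chromosomes in the single libraries. A lack of overlap between the stages therefore does not by itself set the Hox windows apart. With 2 libraries per stage, no test was made on these shares.

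**Figure D2:**
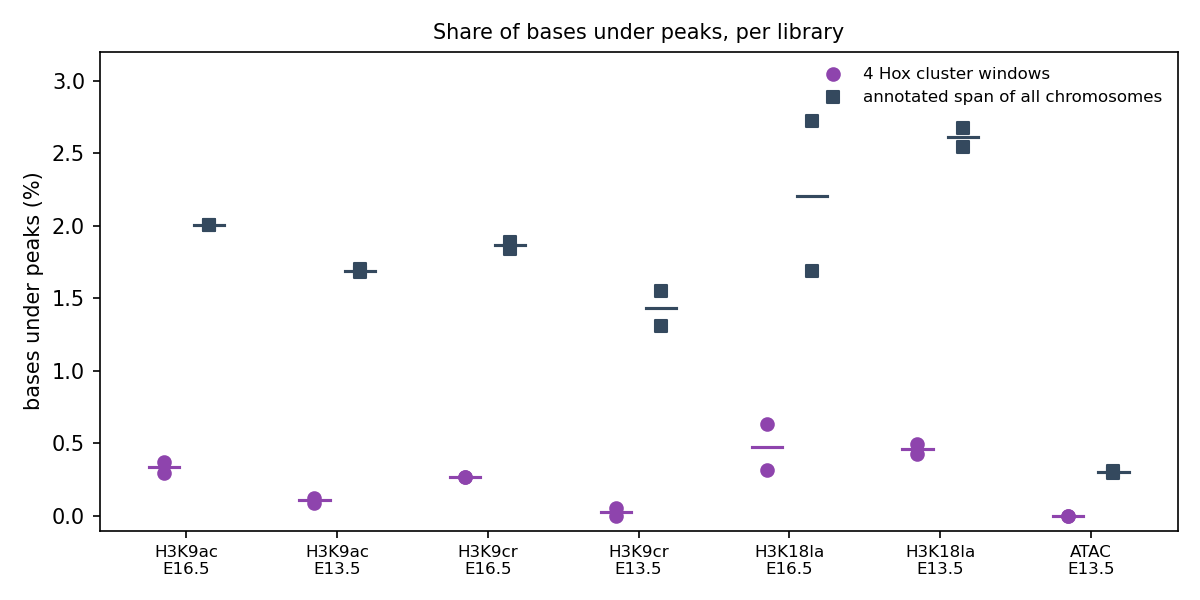
Percent of bases under peaks in each library, in the 4 Hox cluster windows (purple circles) and over the annotated span of all chromosomes (dark squares), with a bar at the mean of 2 libraries. The purple circles lie between 0% and 0.631%, under the dark squares of the same library in all 14 cases.

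The 14 lists held 50 peaks in the windows, which fell into 25 merged regions. Of these regions 17 were called in 1 library only, and 7 were called in both libraries of at least 1 group. H3K18la gave 20 of the merged regions when taken by itself, H3K9ac 6 and H3K9cr 4. The 50 peaks were 236 to 814 bp long with a median of 357.5 bp, and none reached 1000 bp. Their fold enrichment ran from 2.52 to 14.6 with a median of 4.34. Within their own lists, 10 of the 50 lay above the median fold enrichment and 4 above the median length.

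**Figure D3:**
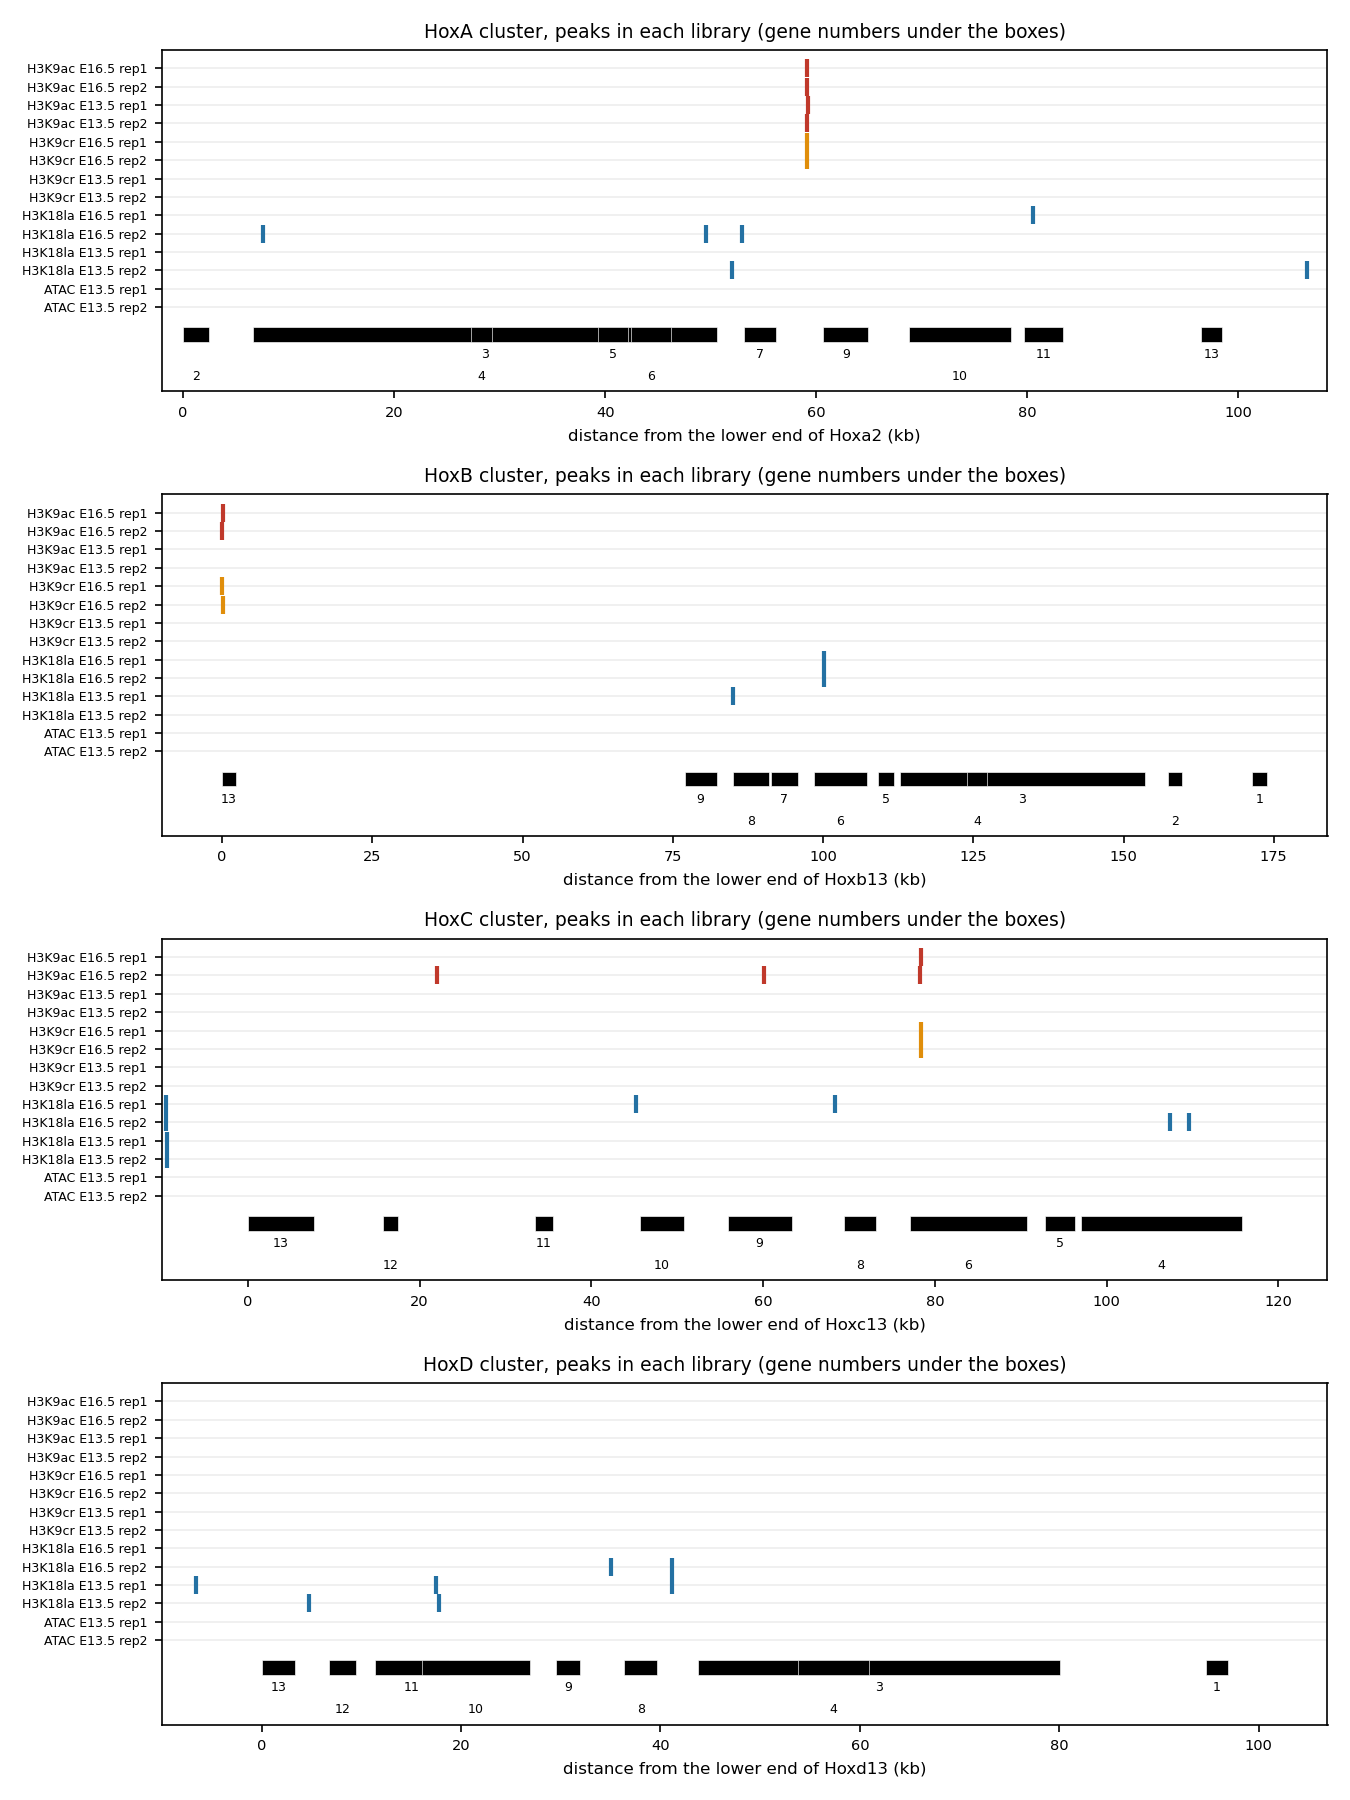
Peaks in the 4 Hox clusters, 1 row per library with E16.5 above E13.5 for each mark, against the distance in kb from the lower end of the first gene drawn. Ticks stand at peak centres, are not drawn to the peaks' width and are coloured by mark, and black boxes show the genes with their numbers. In HoxA, drawn from Hoxa2 on, the 2 H3K9 marks meet between Hoxa7 and Hoxa9, ATAC-seq rows are empty, and HoxD holds H3K18la ticks alone.

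The strongest peak of the windows lay in no Hox gene. It sat between Hoxa7 and Hoxa9 at chr6:52221342-52221740, 1357 bp from Hoxa9. H3K9ac had fold enrichments of 14.6 and 13.9 there at E16.5 and 5.05 and 5.06 at E13.5. H3K9cr had 13.4 and 12.1 at E16.5, and no peak in either E13.5 library. The region was picked as the strongest of the windows, a rank that rests on its E16.5 values. The higher E16.5 values there are therefore no evidence of a stage difference, which was not tested. Within their own lists the H3K9ac peaks stood at the percentiles 66.2 and 67.2 of fold enrichment at E16.5 and 27.8 and 27.8 at E13.5. No H3K18la or ATAC-seq library had a peak in this region.

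Besides the region at Hoxb6, 2 regions seen in both libraries of a group carried H3K18la alone. One, at chr15:102911347-102911998, lay 9133 bp outside Hoxc13 and had fold enrichments of 4.86 and 5.36 at E16.5 and 5.41 and 4.91 at E13.5. It was the one region of the windows that H3K18la marked in all 4 libraries. The other lay inside Hoxd11 and Hoxd10, limb and spinal cord patterning genes that overlap in the annotation (chr2:74685550-74686386), with 6.66 and 4.91 at E13.5 and no peak at E16.5. In single H3K18la libraries, peaks also came within 2000 bp of the start sites of Hoxa3, Hoxa10, Hoxc8, Hoxc10, Hoxd8 and Hoxd12. The number of members marked by H3K18la was 5 and 3 in the E16.5 libraries and 1 and 3 in the E13.5 libraries. The first of the E16.5 libraries stood apart in its list as a whole, with 1.69% of the genome under peaks against 2.72% in the second.

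Peaks at the telencephalon regulators were longer and higher by their medians. For H3K9ac the cluster peaks had a median fold enrichment of 6.72 at E16.5 and 5.06 at E13.5, against 32.7 and 35.4 for the peaks at start sites of the 17 regulators. For H3K9cr the medians were 6.40 at E16.5 and 5.84 at E13.5, where 1 peak was found, against 32.2 and 41.2. For H3K18la they were 3.94 at E16.5 and 3.44 at E13.5, against 7.67 and 9.52. In length the Hox medians were 374.5 bp and 267.0 bp for H3K9ac at E16.5 and E13.5, against 12285.5 bp and 16109.0 bp at the regulators. Fold enrichments overlapped at E16.5, where the lowest regulator values were 5.46 for H3K9ac, 7.37 for H3K9cr and 2.90 for H3K18la. At E13.5 the lowest were 13.8 for H3K9ac and 15.5 for H3K9cr, above the Hox peaks, and 3.11 for H3K18la. Neighbouring regulators such as Dlx5 and Dlx6 shared peaks, which were counted for each gene.

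**Figure D4:**
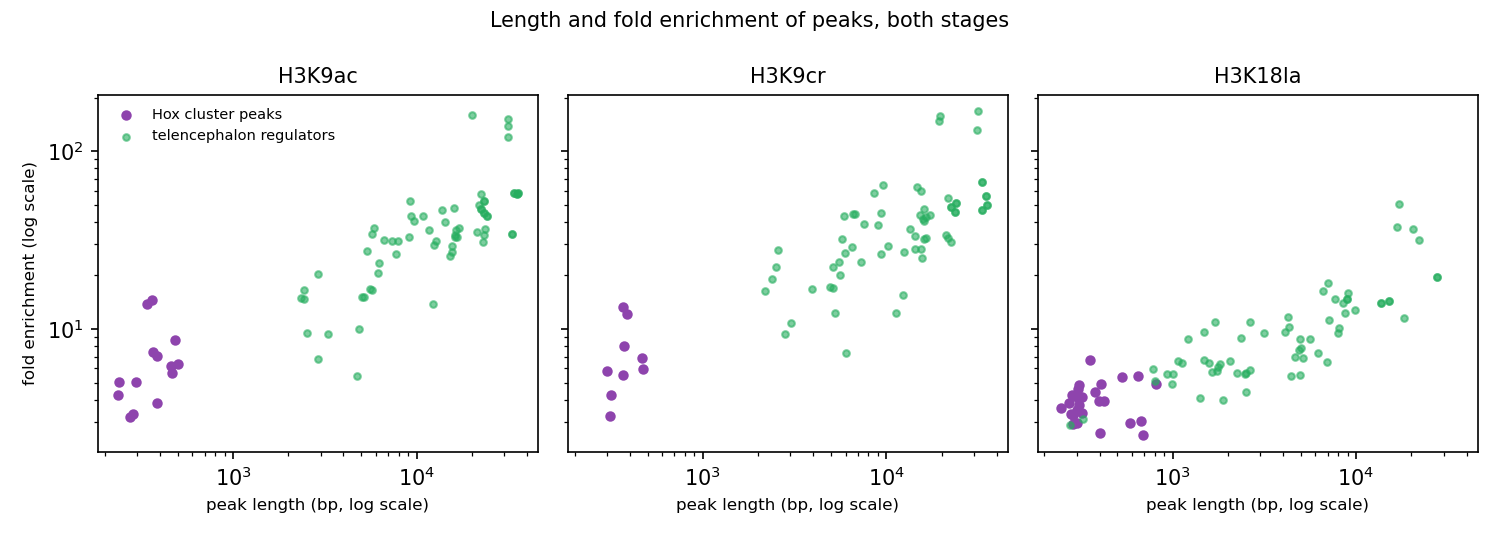
Length in bp against fold enrichment, both on log scales, of every peak in the Hox windows (purple) and of the peaks at the start sites of 17 telencephalon regulators (green), both stages together, for the 3 histone marks. Purple points stay under 1000 bp, and for H3K9ac and H3K9cr they share no part of the length axis with the green points.

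HoxD held peaks of H3K18la alone. No library of H3K9ac, H3K9cr or ATAC-seq had a peak in its window at either stage covered. The nearest H3K9ac and H3K9cr peaks lay 88.4 to 88.6 kb below Hoxd13 and 60.2 to 60.4 kb above Hoxd1. The stretch without such peaks was 245.6 to 245.8 kb long in all 8 libraries of both marks. Its limits were the neighbouring genes Lnpk, which encodes a protein of endoplasmic reticulum junctions, and Mtx2, which encodes a mitochondrial import protein. Both were marked by all 12 histone libraries and had 4096 and 2781 counts over the 4 RNA libraries. Longer stretches without them were found at E13.5 in other clusters. Around HoxC the stretch was 287.8 to 304.4 kb for both H3K9 marks, and peaks at Hoxc6 interrupted it at E16.5. Around HoxB it was 385.5 and 471.1 kb for H3K9ac and 261.3 and 339.5 kb for H3K9cr at E13.5, and peaks at Hoxb13 interrupted it at E16.5. ATAC-seq left 353.6 and 520.7 kb free around HoxA, 569.5 and 701.3 kb around HoxB, 279.8 and 374.1 kb around HoxC and 423.3 and 843.7 kb around HoxD.

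Genes next to the clusters were marked in most cases. Of 17 tested flanking genes, 1 rose and 7 fell at E16.5, against 28.4% of all tested genes that were higher and 29.2% that were lower. Among them were Calcoco1, which rose by 0.29, and Cbx5, which encodes a heterochromatin protein and fell by 0.74 on the log2 scale. Skap2 and Hibadh beside HoxA, Snx11 beside HoxB, Atp5g2, Smug1 and Cbx5 beside HoxC, and Lnpk and Mtx2 beside HoxD had start-site peaks in all 12 histone libraries. The nearest neighbours that are themselves homeobox genes of Hox type did not. Evx1, at the Hoxa13 end of HoxA, had 0 counts and no start-site peak in any library. Evx2, at the Hoxd13 end of HoxD, had 0 and 2 counts at E16.5 and 1 and 3 at E13.5. Its one start-site peak was an H3K18la peak in 1 E13.5 library. Ttll6, a tubulin-modifying enzyme beside Hoxb13, had 31 counts and no start-site peak. Peaks elsewhere in these flanking genes were not counted. Calcoco2, on the same side of HoxB, had 0 counts and was marked all the same. It had H3K9cr peaks in all libraries of that mark, and H3K9ac peaks in both E16.5 libraries and 1 E13.5 library. No H3K18la library had a peak there.

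The Hox promoters were not poor in CG. The median of the 24 promoters was 14.5 CG, with a range of 4 to 45, and 17 of them (70.8%) had at least 10. The 21238 promoters of other protein-coding genes had a median of 13, with 56.7% at 10 or more. In the 3739 promoters of other protein-coding genes with 0 counts the median was 2, and 4.65% had at least 10. The 17 promoters of telencephalon regulators had a median of 16, with 82.4% at 10 or more.

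**Figure D5:**
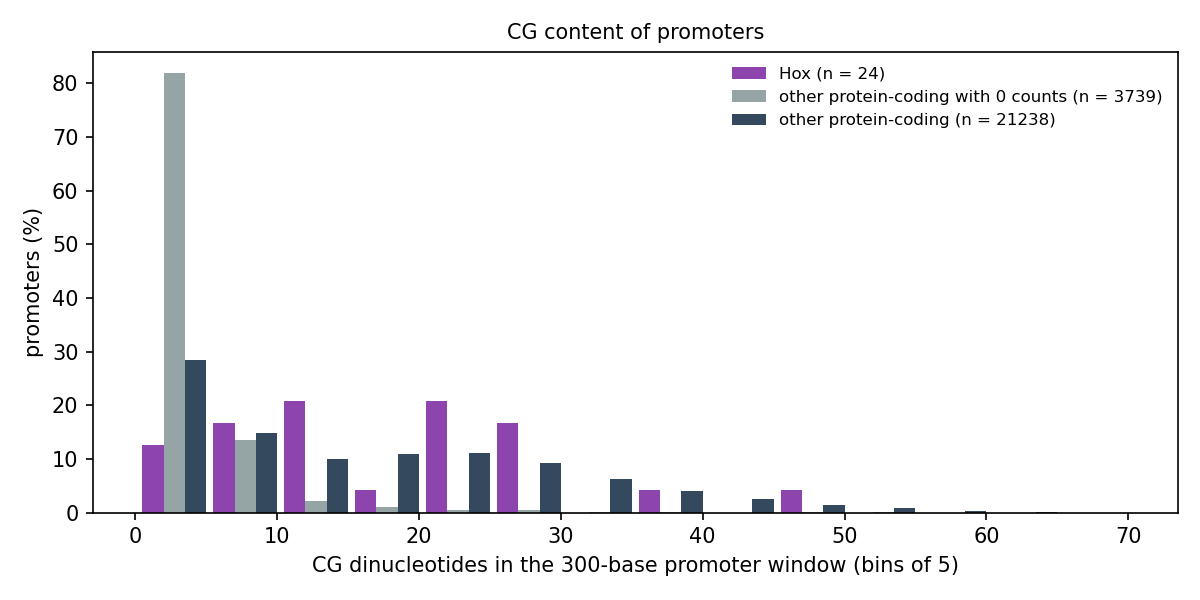
Share of promoters in percent by number of CG dinucleotides in a 300-base promoter, in bins of 5, for Hox genes (purple), other protein-coding genes with 0 RNA counts (grey) and other protein-coding genes (dark). The grey bars crowd at the left, with a median of 2, and the purple bars spread with the dark ones, with medians of 14.5 and 13.

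The marks were therefore set side by side at like CG. Of the 16 Hox genes whose promoters had at least 10 CG, 0 were marked in any group. That 0 was fixed beforehand, since these 16 are among the 22 members with a listed start, of which 0 were marked, and the marked members have no promoter entry. Of 166 other genes with 0 counts and at least 10 CG, H3K9ac marked 19.9% at E16.5 and 11.4% at E13.5, and H3K9cr 20.5% and 13.3%. H3K18la marked 7.23% of them at E16.5 and 9.64% at E13.5, and ATAC-seq 7.83% at E13.5. Of 8964 other genes with over 100 counts and at least 10 CG, H3K9ac marked 98.9% at E16.5 and 98.3% at E13.5, and ATAC-seq 76.8% at E13.5. The 16 Hox genes share 4 clusters and are not independent of each other, so no test was made.

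Genes that act on or with Hox genes were present in the tissue. All 9 tested TALE cofactors, the Pbx, Meis and related homeodomain proteins that bind DNA with Hox proteins, passed the filter, and 0 rose and 2 fell, against 28.4% of all tested genes that were higher and 29.2% that were lower. Pbx2 averaged 60.4 ± 3.50 CPM at E16.5 and 104 ± 2.06 CPM at E13.5 (SD, n = 2 each), a fall of 0.78 on the log2 scale (edgeR, adjusted p = 1.74e-05). Meis1 averaged 37.3 ± 2.88 CPM at E16.5 and 44.6 ± 3.57 CPM at E13.5, with an adjusted p of 0.0341 in edgeR that became 0.136 under upper-quartile scaling. The median log2 change of the list was -0.05, and 0.04 under that scaling, against 0.01 and 0.10 over all genes. That scaling called 2 cofactors higher and 1 lower, and without the second E13.5 library 1 was higher and 1 lower, so no direction is given for the list.

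Of the 12 members of Polycomb repressive complex 2, which methylates lysine 27 of histone H3 at silent Hox clusters, 2 rose and 9 fell, and 8 fell under upper-quartile scaling. Of all tested genes 28.4% were higher and 29.2% lower, and the median log2 change was -0.43 in the list and 0.01 over all genes. Ezh2, its main methyltransferase, averaged 156 ± 4.15 CPM at E16.5 and 275 ± 5.26 CPM at E13.5, a fall of 0.82 on the log2 scale (edgeR, adjusted p = 5.89e-06). Suz12, a core subunit, averaged 71.0 ± 1.41 CPM at E16.5 and 128 ± 5.55 CPM at E13.5. Ezh1, the other methyltransferase, rose to 41.1 ± 2.08 CPM at E16.5, against 23.9 ± 0.264 CPM at E13.5, a log2 change of 0.78. Phf1, an accessory subunit, rose as well, with a log2 change of 0.63. The Hox genes stayed at 0 to 2 counts per library at both stages.

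Of 20 members of Polycomb repressive complex 1, which binds that mark and compacts chromatin, 4 rose and 9 fell, though 2 rose with DESeq2 and 1 rose without the second E13.5 library. The shares over all tested genes were 28.4% higher and 29.2% lower, and the median log2 change of the list was -0.14, against 0.01 over all genes. Cbx2, a reader of the mark, averaged 57.2 ± 0.618 CPM at E16.5 and 117 ± 0.271 CPM at E13.5, a fall of 1.03 on the log2 scale (edgeR, adjusted p = 2.11e-06). Cbx7, another reader, rose by 0.76 on the log2 scale, to 16.8 ± 1.34 CPM at E16.5 against 9.91 ± 0.256 CPM at E13.5. Of 14 trithorax genes and lysine 27 demethylases, which oppose Polycomb, 0 rose and 7 fell, and 5 fell under upper-quartile scaling, beside the same shares over all tested genes. Psip1, a chromatin reader of the trithorax group, fell by 0.67 and Dpy30, a subunit of the lysine 4 methyltransferases, by 0.48 on the log2 scale.

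Of 15 genes listed as upstream activators of the clusters, 11 were tested, and 3 rose and 4 fell. These shares lay near the 28.4% of all tested genes that were higher and the 29.2% that were lower. Bmi1, among the 4 that fell, is a member of Polycomb repressive complex 1 rather than an activator, and is counted in that list too. Cdx1, Cdx2 and Cdx4, which switch on trunk Hox genes, had 0 counts in all libraries, and Aldh1a2, which makes retinoic acid, had 0 and 1 counts at E16.5 and 1 and 0 at E13.5. The retinoid receptor genes Rxrg and Rarb rose, by 2.79 and 1.72 on the log2 scale (edgeR, adjusted p = 1.44e-06 and 4.47e-05). Rxrg averaged 28.1 ± 0.0268 CPM at E16.5 and 4.06 ± 0.286 CPM at E13.5, and Rarb, whose own gene responds to retinoic acid, 13.7 ± 0.773 CPM at E16.5 and 4.13 ± 0.238 CPM at E13.5. Rxra fell by 0.79 on the log2 scale.

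The RNA of marker genes of other cell types in the dissected tissue was compared between the stages. Of all tested genes 28.4% were higher at E16.5 and 29.2% lower. All 7 endothelial markers rose, with a summed level of 323 and 340 CPM at E16.5 and 92.2 and 104 CPM at E13.5. Of 9 tested blood and microglia genes 7 rose and 1 fell, with a summed level of 2375 and 3176 CPM at E16.5 and 1492 and 1375 CPM at E13.5. Most of that sum came from the globin genes Hba-a1 and Hbb-bs, so it says little about microglia. Hba-a1 had 1389 and 1895 CPM at E16.5 and 990 and 967 CPM at E13.5. Hbb-bs had 798 and 1086 CPM at E16.5 and 361 and 274 CPM at E13.5. Meninges and mesenchyme had 9 tested genes, of which 2 rose and 1 fell, and a summed level of 82.6 and 85.6 CPM at E16.5 and 41.0 and 60.5 CPM at E13.5. Pdgfra, which oligodendrocyte precursors also express, had 40.8 and 36.2 CPM at E16.5 and 7.57 and 6.73 CPM at E13.5. Without it, a sum chosen after seeing the data, the other 12 genes of the list had 41.8 and 49.4 CPM at E16.5 and 33.5 and 53.8 CPM at E13.5, which overlap. The median log2 change of the tested genes of the whole list, Pdgfra included, was 0.55. It was 0.95 without the second E13.5 library and 0.08 without the first. Endothelial, blood and connective tissue cells can express Hox genes in the trunk, and the counts of the Hox genes were 1 and 1 at E16.5 and 2 and 0 at E13.5 beside them. Their part in the peaks seen at E16.5 alone was not tested.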

How the data were processed

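Peaks and RNA came from 18 libraries of mouse telencephalon at 2 stages, and the input libraries were not analysed here. Per the submitters' processing notes, expected counts per gene came from Salmon 1.1.0 and were deposited unscaled by the authors. The authors' deposited table of stage differences held log2 fold changes and, in the same deposited table, the p-value of each gene, from DESeq2 1.26.0 per the submitters' processing notes. Per those notes, peaks were made on GRCm38 with Bowtie2 2.4.1 and MACS2 2.2.7.1, in 1 list per library. The deposited peaks carry, per the file headers, a signal (pileup at the summit), a -log10 p-value and q-value, and a ratio, the fold enrichment. All lists ended just under a q-value of 0.01, and the labels state neither the control nor the treatment of duplicates. A caller's local background and threshold decide which weak peaks are listed, so a region without a peak is not shown to lack the mark.

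After rounding, the counts went into edgeR 4.0.16 in R 4.3.3 (TMM, filterByExpr, quasi-likelihood F test, Benjamini-Hochberg over all genes tested), for E16.5 minus E13.5. The script was tested on simulated data. Replicates of each stage differed by more than sampling noise. As the labels describe no embryos or litters behind them, p-values measure only the spread between these libraries, which may be technical. Windows, overlaps of at least 1 bp and merged regions were computed in Python 3.11.15 and checked with bedtools 2.31.1. Positions came from the RefSeq annotation of GRCm38.p6 and promoters from its table. DESeq2 1.42.0 was an alternative test.

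The members and the 12 gene lists were chosen with earlier results of these data known. Named by rule were members with a count, members marked in both libraries of a group, the nearest flanking genes, and up to 2 rising and 2 falling genes of each list with the largest fold change and a mean of at least 1 CPM. The text takes a selection of the listed genes, and others, such as Emx1 and genes at 0, are named as examples or because they make up a small count. Some items that the rule names are not reported here. The RNA table was used with all columns (0 left out).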

Additional observations from a re-analysis of the deposited data

How the results depend on the processing

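No member was called in any of the 8 other RNA settings (DESeq2, upper-quartile scaling, no filter, the replicate block and leaving out each library). With the replicate number as a block, 0 Hox genes were called higher and 0 lower. Replicate 1 libraries deviated together with a correlation of 0.125 over 16237 genes, but with 2 pairs and no statement in the labels this does not show that the numbers pair the samples. The block called 4675 genes of the whole table higher and 4851 lower, against 4605 and 4740 without it, and DESeq2 called 3397 and 3854. Under upper-quartile scaling 5349 genes were higher and 3820 lower, with a median log2 change of 0.10 over all genes. Of the genes named by rule, Meis1, Pcgf6 and Gbx2 lost their call in at least 1 setting. DESeq2 and the setting with no filter tested 4 members each, and the other settings tested none.

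Counts of Hox genes marked at start sites are small, and many moved. With a window of 1000 bp, H3K9ac marked 1 at E16.5 and 0 at E13.5, H3K9cr 1 at E16.5, and H3K18la 0 at E16.5 and 0 at E13.5. With 5000 bp, H3K9ac marked 2 at E13.5, and H3K18la 2 at E16.5 and 2 at E13.5. With a peak in at least 1 library, H3K9cr marked 1 at E13.5, and H3K18la 7 at E16.5 and 3 at E13.5. Each library alone gave 0 to 1 for H3K9cr at E13.5, 3 to 5 for H3K18la at E16.5 and 1 to 3 for H3K18la at E13.5. A q-value under 1e-04 left 0 for H3K18la at E13.5. Taking either end of every gene, or the whole gene with 2000 bp, both chosen after seeing the data, gave 2 for H3K9ac and 3 for H3K18la at E13.5. The covered share moved to 0.290% for H3K9cr at E16.5 without the added 10000 bp, and for H3K18la at E13.5 to 0.281% with the stricter q-value and 0.370% without the added bases. Of 100 alternative values 23 moved, but some could not move, so this share is no measure of stability. RNA settings that tested no member could call none. A covered share was said to move when it lay more than 1 SD from the main value. By that rule, leaving out 1 of 2 libraries could never move it. The cause of the moves was not tested beyond the settings' own construction. Read depth behind the peak lists is unknown, and RNA levels of up to 3 counts per library could be missed.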
